A study of Mus musculus with 121 samples.

Results

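Immediate early genes are transcribed within minutes of a growth factor, stress or wounding signal, without new protein synthesis, and their messages are usually short lived. The members described here are Fos, Fosb, Jun and Junb (subunits of the AP-1 transcription factor), Egr1 and Atf3 (transcription factors induced by growth signals and by stress), Myc (the transcription factor that drives ribosome production and growth), Dusp1 (a phosphatase that switches MAP kinases off), Pim1 (a serine/threonine kinase transcribed downstream of STAT factors) and Ccn1 (a secreted matricellular protein of the CCN family). They were the 10 genes named by symbol in the probe annotation, each represented by its brightest probe with values on at least 90% of arrays, out of 12963 genes modelled and 36227 probes on the array. Each member had 1 such probe, and 9 of the 10 passed the filter on dim probes. Egr1 lay just below that filter and was kept.

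The study measured gene expression on CodeLink 1-colour arrays in 6 mouse tumours transplanted into the hind legs of male C3H/HeMs mice, after a single local dose of gamma rays or of carbon ions. A radiation-induced fibrosarcoma, so named for its origin, is called the induced fibrosarcoma here. The others were nfsa (a fibrosarcoma), mmca and mca4 (mammary carcinomas), and scc7 and nrs1 (squamous carcinomas). The labels give these others as spontaneous tumours of C3H/He mice and the induced fibrosarcoma as a C3H mouse tumour. There were 54 groups, with 81 arrays for gamma rays and 40 for carbon ions, and 2 arrays in 41 groups and 3 in 13. Nothing in the labels says that the arrays of a group came from separate animals, so p-values measure only the spread between these arrays, which may be technical.

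After gamma rays, the induced fibrosarcoma, mmca, nfsa and mca4 were taken at day 1 after 30, 50 or 70 Gy and, unirradiated, at day 1. Later gamma groups were the induced fibrosarcoma at days 8 and 16 (30 Gy) and 22 (50 Gy), mmca at days 9 (30 Gy) and 19 (50 Gy), nfsa at days 4 and 9 (30 and 50 Gy), and mca4 at days 11 (30 Gy), 25 and 41 (50 Gy). Gamma-irradiated scc7 was taken at days 8 (30 Gy), 23 and 35 (50 Gy), and nrs1 at days 8 (30 Gy) and 15 (50 Gy). After 30 Gy of carbon ions, mmca and mca4 were taken at hour 6 and days 1, 3, 5 and 20, with unirradiated tumours at hour 0. Carbon-irradiated induced fibrosarcoma, nfsa and nrs1 were taken at days 5 and 20, and scc7 at days 5 and 42. Only mmca had a later unirradiated gamma group, at day 9, which served for its late comparisons. Its day 19 group was also set against that day 9 group, so time and irradiation cannot be told apart there. For the induced fibrosarcoma, nfsa and mca4 the unirradiated arrays were those of day 1, so time and irradiation cannot be told apart at late times. The unirradiated carbon arrays of mmca and mca4 were those of hour 0, so the same holds for carbon days 1 to 20. The labels give no hybridisation batch, so a dose and the handling of its arrays cannot be told apart either.

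In textbook terms, the promoters of many immediate early genes carry sites for serum response factor, for CREB and ATF proteins and for AP-1 itself, so that MAP kinase, cAMP and stress signals converge on them. Dusp1 closes the loop by dephosphorylating the kinases that induced it, and Atf3 is also induced by the integrated stress response. The sequences before the transcription start of 5 members are shown because they carry a core of the CREB/ATF site. They are RefSeq entries on build GRCm38.p6, read 5′ to 3′ on the gene's strand, with TGACG or its reverse complement CGTCA, the palindrome TGACGTCA, and TATAAA in capitals. All lie within 200 bases before the start. Fos lies at chr12:85473750-85473869 (plus strand), Junb at chr8:84978799-84978868 (minus), Dusp1 at chr17:26508593-26508672 (minus), Atf3 at chr1:191183334-191183393 (minus) and Ccn1 at chr3:145649986-145650065 (minus).
Fos: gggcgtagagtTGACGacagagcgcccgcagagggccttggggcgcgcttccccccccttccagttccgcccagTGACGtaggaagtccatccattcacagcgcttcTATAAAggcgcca
Junb: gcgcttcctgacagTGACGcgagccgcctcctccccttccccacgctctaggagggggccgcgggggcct
Dusp1: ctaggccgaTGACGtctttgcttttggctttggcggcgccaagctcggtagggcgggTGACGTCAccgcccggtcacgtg
Atf3: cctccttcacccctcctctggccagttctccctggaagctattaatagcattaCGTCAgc
Ccn1: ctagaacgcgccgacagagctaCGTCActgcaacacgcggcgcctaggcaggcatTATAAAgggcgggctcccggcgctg

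Entries were found for 8 of the 10 members, and 6 of the 8 (these 5 and Fosb) held TGACG on either strand within 250 bases before the start. Of all 32851 promoters in the table, 17.8% held TGACG, 1.55% held TGACGTCA and 12.4% held TATAAA. In Dusp1, the TGACGTCA palindrome contains both of its inner TGACG matches. Fos and Ccn1 held TATAAA close to the start. Jun and Pim1 held none of these letters in the window. A match is a description of letters and not a binding site.

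Values are the deposited intensities, and changes are differences of log2 intensity with a standard error (SE) from 1 limma model of all 54 group means. A change is called when its limma p-value, adjusted by Benjamini-Hochberg over all genes tested, is under 0.05. Probes differ in brightness, so levels are compared within a gene only. Array medians ran from 1.31 to 1.85 in the gamma experiment and from 1.04 to 1.07 in the carbon experiment, and the 2 experiments are described apart. The median absolute log2 difference between an array and the others of its group ran from 0.0686 to 0.347 with a median of 0.116. The highest was replicate 3 of nfsa 50 Gy day 4, a group that entered the model but no comparison reported here. The summed intensity of Epcam and Krt5, the epithelial markers with a value on every array, was 115 to 174 in unirradiated gamma mmca and mca4 of day 1 and 441 to 516 in gamma nrs1. It was 0.737 to 0.967 in gamma scc7, although scc7 is labelled a squamous carcinoma. That was below the level in both fibrosarcomas before irradiation (1.29 to 1.36).

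Before irradiation, the 2 fibrosarcomas and the 2 mammary carcinomas already differed in most members. The SE measures the spread between arrays of a group, not between tumours of a class. With 1 value per group, 0 members were called higher and 0 lower. Ccn1 measured 17.4 and 22.3 in the induced fibrosarcoma and 47.9 and 59.9 in nfsa, against 11.3 and 10.8 in mmca and 6.3 and 5.21 in mca4. No array of the fibrosarcomas overlapped one of the carcinomas, and the difference was 2.03 ± 0.13 (SE) in log2. Jun, the major partner of Fos in AP-1, was higher in the fibrosarcomas too, at 80.6, 72.6, 63.9 and 55.7 against 39.5, 39.7, 26.5 and 26.9 in the carcinomas. Atf3 differed the other way, with 0.683, 0.711, 1.06 and 1.46 in the fibrosarcomas against 5.9 and 6.6 in mmca and 1.31 and 1.6 in mca4. The highest of these 8 values were both from mmca, and nfsa and mca4 overlapped. Myc measured 5.2, 5.59, 6.72 and 7.08 in the fibrosarcomas, against 16.9, 16.8, 12.7 and 10.1 in the carcinomas. Over this contrast 67.4% of genes were called, and 9 members were called, 5 higher and 4 lower in the fibrosarcomas. The calls of Fos, Junb and Egr1 were lost without single arrays, for example without nfsa replicate 2 for Junb (0.22, adjusted p = 0.235) and Egr1 (0.30, adjusted p = 0.126) and without induced fibrosarcoma replicate 1 for Fos (-0.45, adjusted p = 0.0887).

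At day 1 after gamma rays, averaged over the 3 doses and 4 tumours, 5 of 9 members were lower than in unirradiated tumours, and Pim1 was called higher. The comparison asks what a single dose had done to the tumour by the next day. Ccn1 fell by 0.71 ± 0.08 in log2, Egr1 fell by 0.61 ± 0.09, Dusp1 fell by 0.40 ± 0.08, Fosb fell by 0.25 ± 0.05 and Myc fell by 0.27 ± 0.09, while Pim1 rose by 0.69 ± 0.09. This made 1 higher and 5 lower of 9 members tested, where 59.5% of all genes were called. The Myc change was -0.19 (adjusted p = 0.0661) without the 50 Gy group of the induced fibrosarcoma. Fos could not be tested in this mean because both arrays of the induced fibrosarcoma at 50 Gy had no value. Without that group its change was -0.39 ± 0.12 (adjusted p = 0.00561). Junb was not called (0.18, adjusted p = 0.0523), but was called higher without that group (0.27, adjusted p = 0.0042), after quantile normalisation (0.23, adjusted p = 0.0242) and with the replicate block (0.18, adjusted p = 0.0381). In whole tumours, fewer cells of a type and less RNA per cell cannot be told apart. At day 1 macrophage markers (4 of 5, median log2 change 0.490) and neutrophil markers (3 of 3, median 0.793) were higher after irradiation, and p53 targets, the textbook response to radiation, were higher in 14 of 16. The part of the infiltrating cells in the members' changes was not tested.

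Pim1, a kinase known to favour survival, had the widest spread over doses. In nfsa it measured 2.19 and 2.1 at 30 Gy, 0.271 and 0.253 at 50 Gy and 0.707 and 0.793 at 70 Gy, against 0.459 and 0.514 unirradiated. In mmca it measured 1.71 and 1.19 at 30 Gy, 0.578 and 0.639 at 50 Gy and 0.34 and 0.413 at 70 Gy, against 1 and 0.997 unirradiated. In all 4 tumours both 30 Gy arrays lay above the unirradiated ones, while 50 Gy and 70 Gy arrays lay above them in the induced fibrosarcoma and mca4 and below them in mmca. In the induced fibrosarcoma it measured 1.14 and 0.852 at 30 Gy, 0.492 and 0.41 at 50 Gy and 0.37 and 0.459 at 70 Gy, against 0.204 and 0.229 unirradiated. In mca4 it measured 1.23 and 1.14, then 0.566 and 0.629, then 0.532 and 0.555 over the same doses, against 0.318 and 0.282 unirradiated. Over the 4 tumours the Pim1 change was 1.71 ± 0.11 at 30 Gy, 0.11 ± 0.11 at 50 Gy and 0.25 ± 0.11 at 70 Gy. The last was called (adjusted p = 0.044) but lost its call when any of 10 arrays was left out, such as induced fibrosarcoma 70 Gy replicate 2 (0.21, adjusted p = 0.115).

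**Figure D1:**
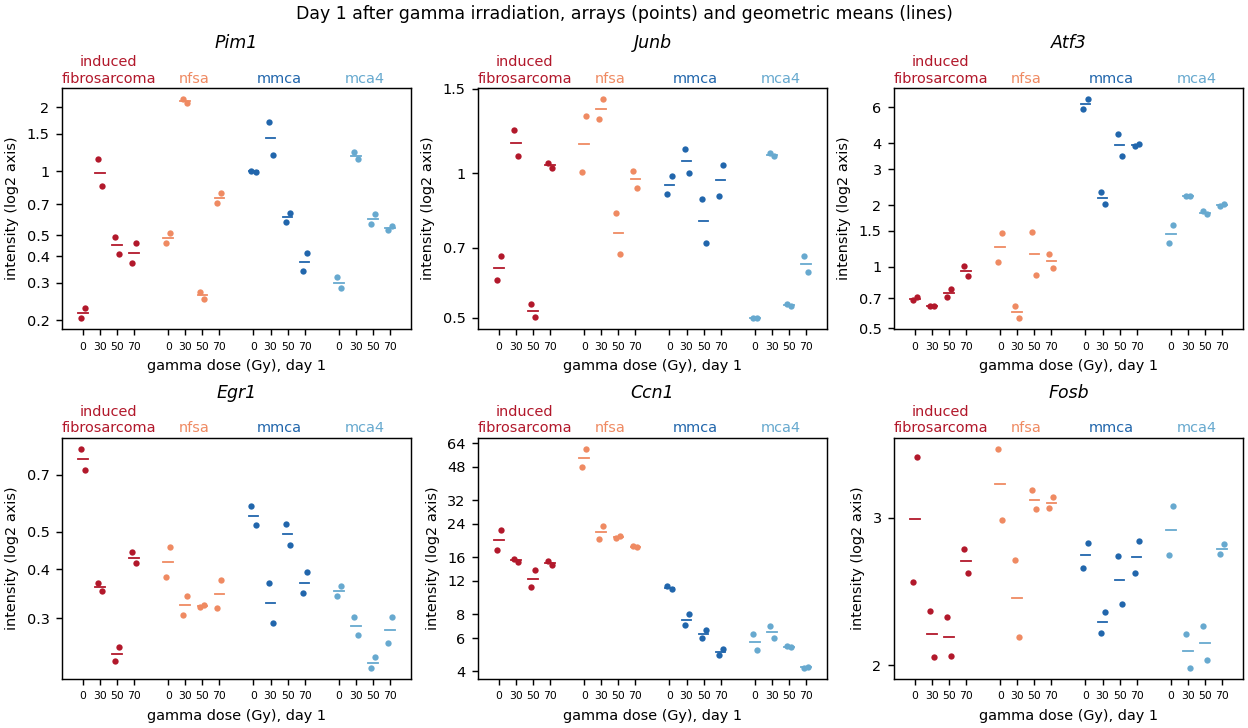
Deposited intensity on a log2 axis of Pim1, Junb, Atf3, Egr1, Ccn1 and Fosb at day 1 after 0, 30, 50 or 70 Gy of gamma rays in the induced fibrosarcoma, nfsa, mmca and mca4; points are arrays and short lines mark geometric means of the 2 arrays of a group. Pim1 peaks at 30 Gy in every tumour, up to 2.19 in nfsa, while Ccn1 in nfsa lies between 18.1 and 23.5 at all 3 doses against 47.9 and 59.9 unirradiated.

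The other members split by dose in several ways. Junb, an AP-1 subunit known to restrain growth, rose at 30 Gy (0.60 ± 0.10), and was lower at 50 Gy (-0.27 ± 0.10). That second call was lost without 6 different arrays, for example mmca 50 Gy replicate 2 (-0.23, adjusted p = 0.0854). In mca4 Junb measured 1.1 and 1.09 at 30 Gy, 0.534 and 0.53 at 50 Gy and 0.672 and 0.623 at 70 Gy, against 0.5 and 0.499 unirradiated. Atf3 fell by 0.52 ± 0.12 at 30 Gy and was not called at 50 or 70 Gy. Fosb, another AP-1 subunit, fell by 0.41 ± 0.06 at 30 Gy and by 0.27 ± 0.06 at 50 Gy. Egr1 fell at every dose, by 0.63 ± 0.11, 0.70 ± 0.11 and 0.51 ± 0.11, and so did Dusp1, by 0.44 ± 0.10, 0.44 ± 0.10 and 0.31 ± 0.10. Ccn1 fell by 0.51 ± 0.09, 0.74 ± 0.09 and 0.88 ± 0.09 from the lowest to the highest dose. Myc fell by 0.71 ± 0.11 at 50 Gy and was not called at the other doses. Called genes made up 63.1% of all genes at 30 Gy, 43.6% at 50 Gy and 61% at 70 Gy, against 7 of 10, 6 of 9 and 6 of 10 members. At 70 Gy Jun fell by 0.25 ± 0.07 (0.02 after quantile normalisation), and Fos fell by 0.45 ± 0.15, a change of -0.32 (adjusted p = 0.0623) without nfsa 0 Gy replicate 2.

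Set directly against each other, 70 Gy and 30 Gy differed in 6 of 10 members, where 50.2% of all genes were called. The calls were 2 higher and 4 lower, against 5 higher and 2 lower after quantile normalisation and 0 of each with 1 value per group. Atf3 (0.53 ± 0.12) and Fosb (0.33 ± 0.06) were higher at 70 Gy than at 30 Gy. Pim1 (-1.46 ± 0.11), Junb (-0.38 ± 0.10), Ccn1 (-0.37 ± 0.09) and Jun (-0.28 ± 0.07) were lower at 70 Gy. The direction for Jun turned round after quantile normalisation of the arrays (0.07). In mmca, Atf3 measured 3.88 and 3.96 at 70 Gy, against 2.3 and 2.02 at 30 Gy.

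The tumours did not share 1 day 1 pattern. In an F test of the tumour differences at day 1, 8 of 10 members were called, all but Fosb and Myc, where 55.9% of all genes were called. For Fos the induced fibrosarcoma entered with 30 and 70 Gy only. The share of all genes is from the test with all its doses, where Fos could not be tested. In the induced fibrosarcoma, 50.9% of genes were called, and Egr1 fell by 1.20 ± 0.18 and Jun by 0.48 ± 0.12 while Pim1 rose by 1.39 ± 0.18. Egr1 in the induced fibrosarcoma measured 0.368 and 0.353 at 30 Gy, 0.232 and 0.252 at 50 Gy and 0.443 and 0.416 at 70 Gy, against 0.819 and 0.72 unirradiated. All 6 irradiated arrays lay below both unirradiated ones. Fosb (-0.36), Junb (0.43), Ccn1 (-0.47) and Myc (-0.61) were also called in the induced fibrosarcoma. Without unirradiated induced fibrosarcoma replicate 2 these 4 lost their calls, at -0.11 (adjusted p = 0.524) for Fosb, 0.51 (adjusted p = 0.0629) for Junb, -0.30 (adjusted p = 0.25) for Ccn1 and -0.56 (adjusted p = 0.0506) for Myc.

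In mmca, 6 members were called lower at day 1, none higher and 4 were not called, where 33.1% of all genes were called. Fos, whose product pairs with Jun proteins, measured 0.525 and 0.516 at 30 Gy, 0.606 and 0.504 at 50 Gy and 0.515 and 0.481 at 70 Gy, against 1.17 and 1.18 unirradiated. The irradiated arrays lay in a narrow band at all doses, and the change was -1.17 ± 0.24. Atf3 fell by 0.96 ± 0.19 and Ccn1 by 0.83 ± 0.15. Ccn1 in mmca measured 7 and 8.02 at 30 Gy, 5.99 and 6.58 at 50 Gy and 4.91 and 5.26 at 70 Gy, against 11.3 and 10.8 unirradiated. Egr1 (-0.49), Dusp1 (-0.53) and Pim1 (-0.54) were called too, but without unirradiated mmca replicate 1 they were at -0.41 (adjusted p = 0.219), -0.49 (adjusted p = 0.0986) and -0.54 (adjusted p = 0.103). All 11 measured hypoxia genes were lower in irradiated mmca at day 1, with a median log2 change of -1.29. How far oxygenation and these members move together was not tested.

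In nfsa, 29% of genes were called at day 1, and the feedback phosphatase Dusp1 and Ccn1 fell most clearly. Dusp1 measured 6.41 and 6.99 at 30 Gy, 6.83 and 5.85 at 50 Gy and 6.09 and 5.81 at 70 Gy, against 10.7 and 11.9 unirradiated, a change of -0.84 ± 0.16. Ccn1 measured 19.9 and 23.5 at 30 Gy, 20.1 and 20.8 at 50 Gy and 18.4 and 18.1 at 70 Gy, against 47.9 and 59.9 unirradiated, a change of -1.42 ± 0.15. Neither gene's irradiated arrays overlapped the unirradiated ones. Fos (-1.12) and Pim1 (0.62) were called, but the change of Fos was -0.61 (adjusted p = 0.197) without unirradiated nfsa replicate 2 and that of Pim1 was 0.54 (adjusted p = 0.0952) without replicate 1. The 2 unirradiated nfsa arrays gave 0.44 and 0.894 for Fos.

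In mca4, 42.7% of genes were called at day 1, and Pim1 rose by 1.28 ± 0.18. Fosb (-0.33), Junb (0.53) and Atf3 (0.48) were called as well. Without unirradiated mca4 replicate 1 the changes of Junb and Atf3 were 0.53 (adjusted p = 0.0576) and 0.33 (adjusted p = 0.334), and without replicate 2 that of Fosb was -0.24 (adjusted p = 0.201). Unlike in the other 3 tumours, Ccn1 was not called in mca4, where it measured between 4.18 and 6.93 after irradiation, against 6.3 and 5.21 unirradiated.

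The day 1 change of the fibrosarcomas was set against that of the mammary carcinomas in the same model, and 21.9% of genes were called. Pim1 rose more in the fibrosarcomas, by a difference of 0.64 ± 0.18 in log2 (adjusted p = 0.0064). Ccn1 fell further in them, by a difference of -0.47 ± 0.15 (adjusted p = 0.0201). The single tumours did not split by class. Pim1 changed by 1.39 in the induced fibrosarcoma and 0.62 in nfsa, against -0.54 in mmca and 1.28 in mca4. Ccn1 changed by -0.47 in the induced fibrosarcoma and -1.42 in nfsa, against -0.83 in mmca and -0.12 in mca4, where it was not called. With 1 value per group 0 genes were called. The Ccn1 difference was -0.38 (adjusted p = 0.103) without induced fibrosarcoma 0 Gy replicate 2, -0.40 (adjusted p = 0.0896) without mca4 0 Gy replicate 2 and -0.39 (adjusted p = 0.1) without nfsa 0 Gy replicate 2.

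From day 8 to day 25 after gamma rays the picture was different, with stress and AP-1 genes high in some tumours. Averaged over the 4 tumours, Atf3 rose by 1.11 ± 0.09, Fos by 0.66 ± 0.12, Pim1 by 0.62 ± 0.09 and Junb by 0.38 ± 0.08, while Fosb fell by 0.27 ± 0.05. Ccn1 was called at 0.24 ± 0.08, and was at 0.17 (adjusted p = 0.0584) without mmca 0 Gy day 9 replicate 1. This made 5 higher and 1 lower of 10 members, where 73.5% of all genes were called. Egr1 (-0.13), Dusp1 (0.13), Jun (0.06) and Myc (0.13) were not called. In the same comparison macrophage markers were higher in 5 of 5 (median log2 change 1.08), T and NK cell markers in 5 of 5 (median 1.82) and neutrophil markers in 3 of 3. Their part in the members' changes was not tested.

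**Figure D2:**
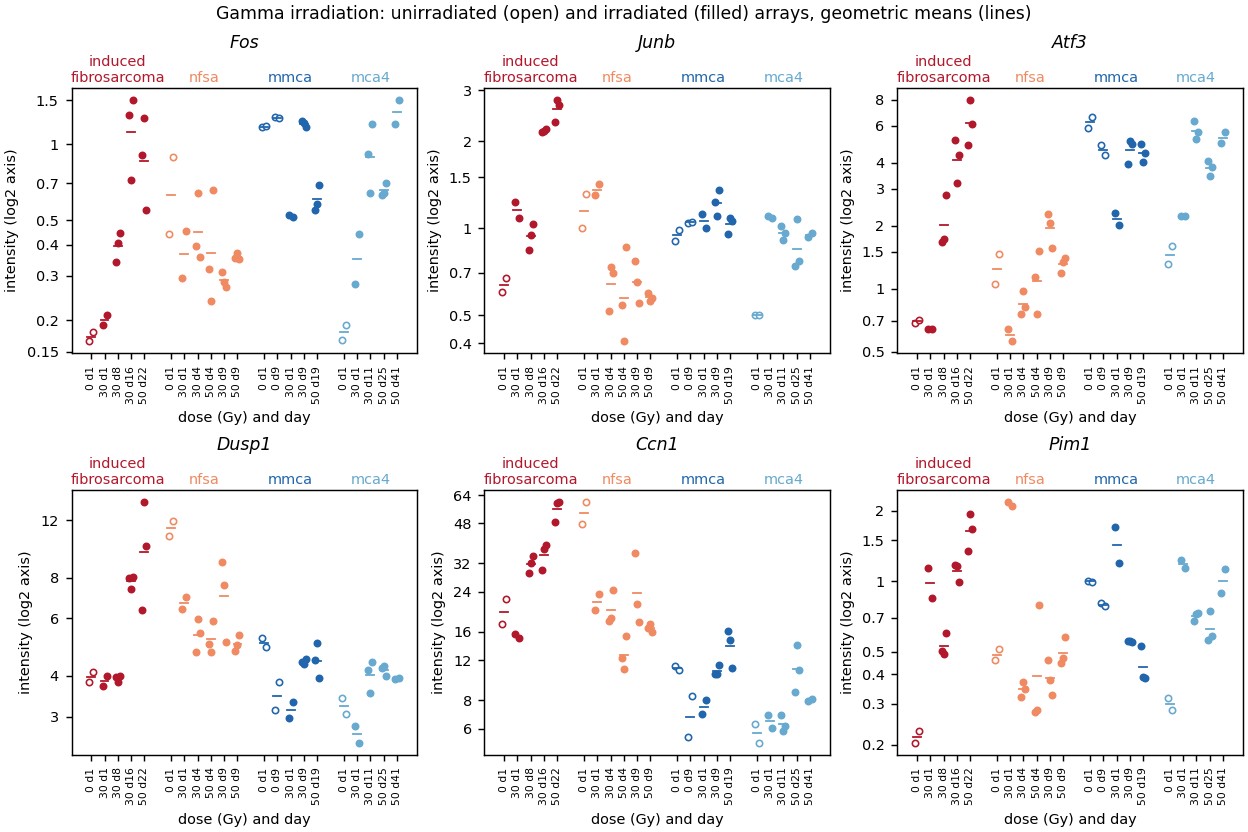
Deposited intensity on a log2 axis of Fos, Junb, Atf3, Dusp1, Ccn1 and Pim1 in the gamma groups of the induced fibrosarcoma, nfsa, mmca and mca4, ordered by dose and day; points are arrays and short lines mark geometric means. Fos and Atf3 climb in the induced fibrosarcoma and mca4 at late times, with Fos up to 1.5 in both against 0.165 to 0.192 unirradiated, while Dusp1 and Ccn1 in nfsa stay below their unirradiated arrays.

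The late changes differed between tumours, and in an F test of the tumour differences at days 8 to 25 all 10 members were called, where 79.3% of all genes were called. In the induced fibrosarcoma, 67.6% of genes were called, and the members were mostly higher, 7 against 2 lower. Fos measured 0.341, 0.404 and 0.444 at day 8 and 1.3, 0.722 and 1.5 at day 16 after 30 Gy, and 0.908, 1.27 and 0.551 at day 22 after 50 Gy, against 0.165 and 0.179 unirradiated. Every late array lay above the unirradiated ones, and the mean change was 2.08 ± 0.23, or 4.22-fold. The unirradiated Fos values lay close to the floor of 0.1269 and under the alternative floor of 0.1818, so the size of this fold is uncertain. No call of a member changed with the alternative floor. Atf3 measured 1.68, 1.73 and 2.81 at day 8, 5.14, 3.19 and 4.34 at day 16 and 4.87, 7.98 and 6.15 at day 22, against 0.683 and 0.711 unirradiated. Its mean change was 2.42 ± 0.18, or 5.35-fold. Pim1 (2.19 ± 0.17), Junb (1.45 ± 0.16), Ccn1 (1.01 ± 0.15) and Dusp1 (0.74 ± 0.15) rose and Jun fell by 0.44 ± 0.11. Fosb (-0.33) and Myc (0.51) were called, but Fosb was at -0.09 (adjusted p = 0.584) without unirradiated induced fibrosarcoma replicate 2 and Myc at 0.46 (adjusted p = 0.0788) without replicate 1. Egr1, low at day 1, was not called (-0.03).

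Day 22 of the induced fibrosarcoma, after 50 Gy, held the largest changes of Atf3, Pim1, Junb, Dusp1 and Ccn1 among the late gamma groups set against 0 Gy. Atf3 rose by 3.15 ± 0.21 (8.91-fold), Pim1 by 2.92 ± 0.20 (7.56-fold), Junb by 2.03 ± 0.19, Ccn1 by 1.50 ± 0.17 and Dusp1 by 1.27 ± 0.18, where 65.2% of genes were called. Pim1 measured 1.35, 1.94 and 1.67, against 0.204 and 0.229 unirradiated. Junb measured 2.33, 2.78 and 2.67, against 0.6 and 0.673 unirradiated. Dusp1 varied more, at 6.38, 13.7 and 10, against 3.84 and 4.12 unirradiated.

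The mca4 carcinoma shared the late rise in Fos and Atf3, at a background of 63.7% of genes called. Fos measured 0.918, 0.641 and 1.21 at day 11 (30 Gy) and 0.631, 0.641 and 0.701 at day 25 (50 Gy), against 0.167 and 0.192 unirradiated. Its change was 2.10 ± 0.24, or 4.28-fold. The unirradiated Fos values were close to the floor of 0.1269 here too, so the size of this fold and of that at day 41 is uncertain. Atf3 measured 6.33, 5.2 and 5.61 at day 11 and 4.08, 3.44 and 3.84 at day 25, against 1.31 and 1.6 unirradiated, a change of 1.68 ± 0.19. The groups did not overlap for either gene. Pim1 (1.15 ± 0.18) and Junb (0.86 ± 0.17) rose, Fosb fell by 0.44 ± 0.11, and Ccn1 was called at 0.54, with 0.41 (adjusted p = 0.0839) without unirradiated mca4 replicate 2. At day 41, where 56.3% of genes were called, Fos measured 1.21 and 1.5, a change of 2.91 ± 0.30 (7.53-fold), and Pim1 had risen by 1.74 ± 0.22 and Atf3 by 1.86 ± 0.23. Fosb measured 1.76 and 1.76, against 2.71 and 3.1 unirradiated, a change of -0.72 ± 0.13.

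In nfsa, where 57.5% of genes were called, 6 members were called lower and none higher. Ccn1 fell by 1.43 ± 0.15, Dusp1 by 0.93 ± 0.16 and Junb by 0.91 ± 0.17. Junb measured 0.771, 0.652 and 0.552 at day 9 after 30 Gy and 0.596, 0.56 and 0.572 after 50 Gy, against 1 and 1.32 unirradiated. The late arrays lay below both unirradiated ones for all 3 genes. The calls of Fos (-0.97) and Egr1 (-0.55) were lost without unirradiated nfsa replicate 2, at -0.46 (adjusted p = 0.234) and -0.42 (adjusted p = 0.144). That of Fosb (-0.31) was lost without replicate 1, at -0.17 (adjusted p = 0.334).

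In mmca, set against its own day 9 unirradiated arrays, 42.4% of genes were called and 2 members were higher and 2 lower. Jun rose by 0.47 ± 0.12 and measured 45.5, 37.9 and 38.8 at day 19 and 32.4, 33.5 and 32.3 at day 9, against 27.2 and 25.4 unirradiated. Ccn1 measured 16.2, 14.7 and 11.1 at day 19 and 10.4, 10.4 and 11.5 at day 9, against 5.5 and 8.38 unirradiated. All late arrays of both genes lay above these day 9 unirradiated ones, and the Ccn1 change was 0.85 ± 0.15, or 0.54 without unirradiated day 9 replicate 1. The rises rest on that control, and day 19 had no unirradiated group of the same day. Against the unirradiated arrays of day 1, the irradiated day 9 arrays lay lower for Jun and near them for Ccn1. Over genes with a value on every array, log2 medians were 2.41 and 2.45 in the day 9 control. They were 2.57 to 2.6 at day 9 and 2.59 to 2.61 at day 19 after irradiation. Pim1 fell by 0.70 ± 0.18, the opposite direction to the induced fibrosarcoma and mca4. Fos was called at -0.58 (adjusted p = 0.049), with arrays of 1.24, 1.22 and 1.17 at day 9 and 0.55, 0.581 and 0.693 at day 19, against 1.28 and 1.27 unirradiated. Leaving out any of 7 arrays ended that call, for example the unirradiated replicate 1 (-0.57, adjusted p = 0.181). In the same comparison macrophage markers were higher in 5 of 5 (median log2 change 2.05), skeletal muscle markers in 6 of 8 (median 2.58), mesenchymal markers in 4 of 5 and endothelial markers in 4 of 4, and hypoxia genes were lower in 10 of 11. Their part in the members' changes was not tested.

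**Figure D3:**
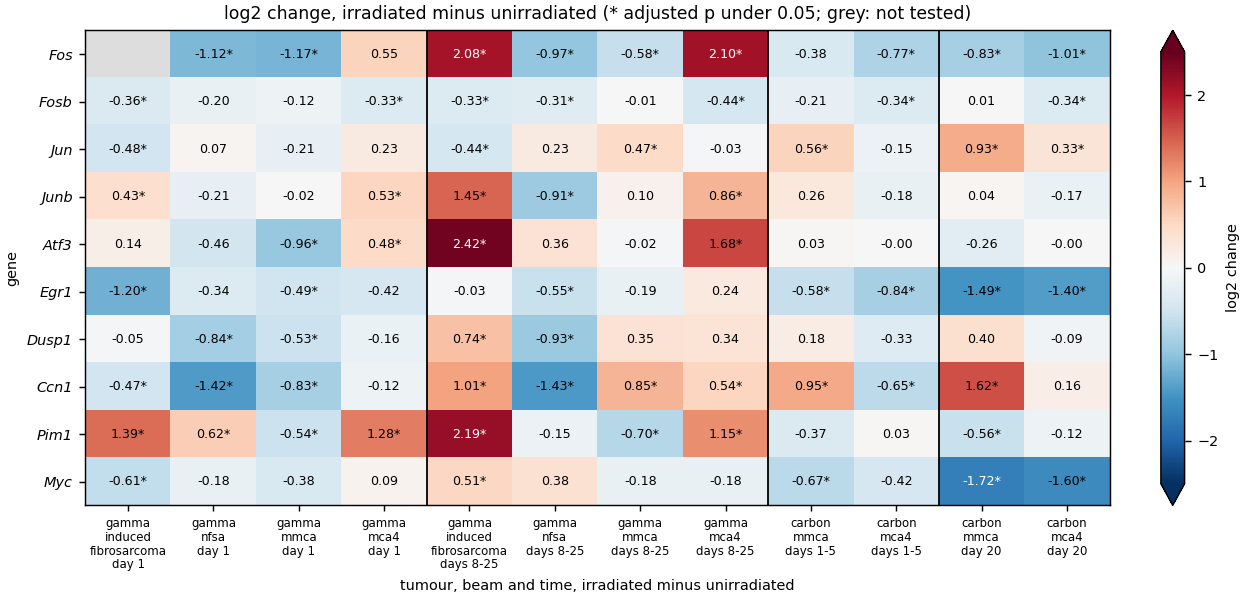
Heat map of log2 changes of the 10 members, with columns for day 1 and days 8 to 25 after gamma rays against 0 Gy in the induced fibrosarcoma, nfsa, mmca and mca4, and for carbon ions against unirradiated tumours; colour and printed value are the log2 change, and marked cells are called. The late columns of the induced fibrosarcoma and mca4 hold rises of 2.42 and 1.68 for Atf3 and of 2.08 and 2.10 for Fos, while the late nfsa column has no called rise.

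The late unirradiated mmca group also gave the change over time without irradiation. From day 1 to day 9 21.2% of genes were called, and 3 members were called lower at day 9 and none higher. Jun fell by 0.59 ± 0.15, with 27.2 and 25.4 at day 9 against 39.5 and 39.7 at day 1. The Ccn1 change was -0.70, but -0.40 (adjusted p = 0.281) without day 9 replicate 1, and that of Dusp1 was -0.54, but -0.40 (adjusted p = 0.337) without the same array. Such change without irradiation was not measured in the induced fibrosarcoma, nfsa or mca4.

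Comparing 30 Gy tumours with each other over time, without the unirradiated arrays, gave opposite directions for Pim1 and Atf3. This comparison was added after the data had been seen. Its baseline, 30 Gy at day 1, was the dose where Pim1 peaked and the only dose where Atf3 was called lower. It cannot tell a later change from that starting point. Against 0 Gy, Pim1 at days 8 to 25 was higher in the induced fibrosarcoma (2.19) and mca4 (1.15), lower in mmca (-0.70) and not called in nfsa (-0.15). Atf3 was higher at days 8 to 11 than at day 1 in all 4 tumours, by 1.65 ± 0.21 in the induced fibrosarcoma (46.9% of genes called), 1.10 ± 0.21 in mmca (43% called), 1.70 ± 0.21 in nfsa (49.5% called) and 1.36 ± 0.21 in mca4 (34.5% called). Pim1 was lower at the later day in all 4, with changes of -0.90 ± 0.20 in the induced fibrosarcoma, -1.36 ± 0.20 in mmca, -2.48 ± 0.20 in nfsa and -0.74 ± 0.20 in mca4. The mca4 call was lost without 30 Gy day 1 replicate 1 (-0.68, adjusted p = 0.057). Pim1 in nfsa measured 0.462, 0.379 and 0.326 at day 9, against 2.19 and 2.1 at day 1. Fos was higher at the later day in the induced fibrosarcoma (0.97), mmca (1.22) and mca4 (1.35), and was not called in nfsa (-0.35).

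Between day 8 and day 16 after the same 30 Gy, the induced fibrosarcoma moved again, with 34.9% of genes called and 6 members higher and 1 lower. Fos was 1.51 ± 0.24 higher at day 16, Junb 1.21 ± 0.17, Pim1 1.07 ± 0.18, Atf3 1.04 ± 0.19, Egr1 1.01 ± 0.18 and Dusp1 0.98 ± 0.16, and Jun was lower (-0.57 ± 0.12). Junb measured 2.15, 2.16 and 2.2 at day 16, against 0.839, 0.949 and 1.03 at day 8. Egr1 measured 0.722, 1.2 and 0.843 at day 16, against 0.389, 0.413 and 0.559 at day 8. The 3 arrays of day 16 lay above the 3 of day 8 in both genes.

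In the squamous carcinomas no unirradiated array was analysed here, so only irradiated groups were compared. The day 8 groups had 30 Gy and all later gamma groups 50 Gy, so dose and time cannot be told apart in comparisons with day 8. In scc7 none of the members was called between 50 Gy day 23 and 30 Gy day 8, where 2.25% of genes were called. At day 35 against day 23, where only 1.15% of genes were called, 4 members were higher. Atf3 measured 12.2 and 14.8 at day 35, against 6.13 and 4.72 at day 23, a change of 1.32 ± 0.23 (adjusted p = 0.000171). Egr1 measured 1.25 and 1.92, against 0.544 and 0.498, a change of 1.58 ± 0.22 (adjusted p = 5.34e-07). Fos (1.47) and Junb (0.79) were called too, but without day 35 replicate 2 they were at 0.84 (adjusted p = 0.186) and 0.54 (adjusted p = 0.252). Neutrophil markers were higher at day 35 in 2 of 3 (median log2 change 2.67), and their part in these changes was not tested. In nrs1 no member was called between 50 Gy day 15 and 30 Gy day 8, where 12.8% of genes were called.

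After carbon ions the members were followed in mmca and mca4 from hour 6. At hour 6, when immediate early transcripts in cultured cells have usually come and gone, none of the 10 members was called in the mean of the 2 tumours, where 9.54% of genes were called and 2905 genes had an unadjusted limma p under 0.05. The values were 0.30 ± 0.12 for Jun, 0.29 ± 0.14 for Dusp1, -0.37 ± 0.15 for Egr1 and -0.41 ± 0.17 for Atf3. In a limma model of the carbon arrays alone, whose arrays varied less, 3567 genes were called, and Jun and Dusp1 were called higher and Egr1 and Atf3 lower. Jun at hour 6 rests on 1 of 2 mca4 arrays, the other having no value. Among the p53 targets 10 of 16 were called higher at hour 6, and none lower.

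Over days 1 to 5 after carbon ions 1 member was called higher, 4 lower and 5 were not called, where 49.2% of all genes were called. Egr1 fell by 0.71 ± 0.13 and Myc by 0.54 ± 0.12. Fosb fell by 0.28 ± 0.07. Fos was called at -0.58, but was at -0.39 (adjusted p = 0.112) without mmca hour 0 replicate 2, and Jun was called at 0.21 but was at 0.17 (adjusted p = 0.159) without mmca hour 0 replicate 1. Egr1 had a value on only 1 array of mmca day 5 and of mca4 day 3. In the same comparison macrophage markers were higher in 5 of 5 (median log2 change 0.981), T and NK cell markers were higher in 4 of 5 (median 0.937) and hypoxia genes were lower in 11 of 11 (median -1.03). Their part in the members' changes was not tested.

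At day 20 after carbon ions Myc and Egr1 were at their lowest, and Ccn1 and Jun were higher than in the unirradiated arrays of hour 0. No unirradiated carbon array was of a later time, so time and irradiation cannot be told apart here. Myc measured 6.87 and 6.58 in mmca at day 20, 10.4 and 11.5 at day 5, 15.3 and 16.2 at day 3, 15.3 and 16 at day 1 and 16.4 and 18.4 at hour 6, against 21 and 23.2 unirradiated. In mca4 it measured 5.91 and 5.98 at day 20, against 19 and 17.1 unirradiated. The mean change was -1.66 ± 0.15 (adjusted p = 8.99e-16). Egr1 measured 0.319 and 0.306 in mca4, against 0.896 and 0.759 unirradiated, and 0.264 on the only mmca array with a value, against 0.682 and 0.806 unirradiated. Its mean change was -1.45 ± 0.17. Fos fell by 0.92 ± 0.21, Jun rose by 0.63 ± 0.10 and Ccn1 by 0.89 ± 0.13. This made 2 higher and 4 lower of 10, where 71% of genes were called. The Pim1 call (-0.34) was lost without 6 different arrays, for example mmca hour 0 replicate 2 (-0.26, adjusted p = 0.174). Markers of other cells moved with these changes: macrophage markers were higher in 5 of 5 (median log2 change 2.38), skeletal muscle markers in 8 of 8 (median 2.69) and mesenchymal markers in 4 of 5. Their part in the members' changes was not tested.

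**Figure D4:**
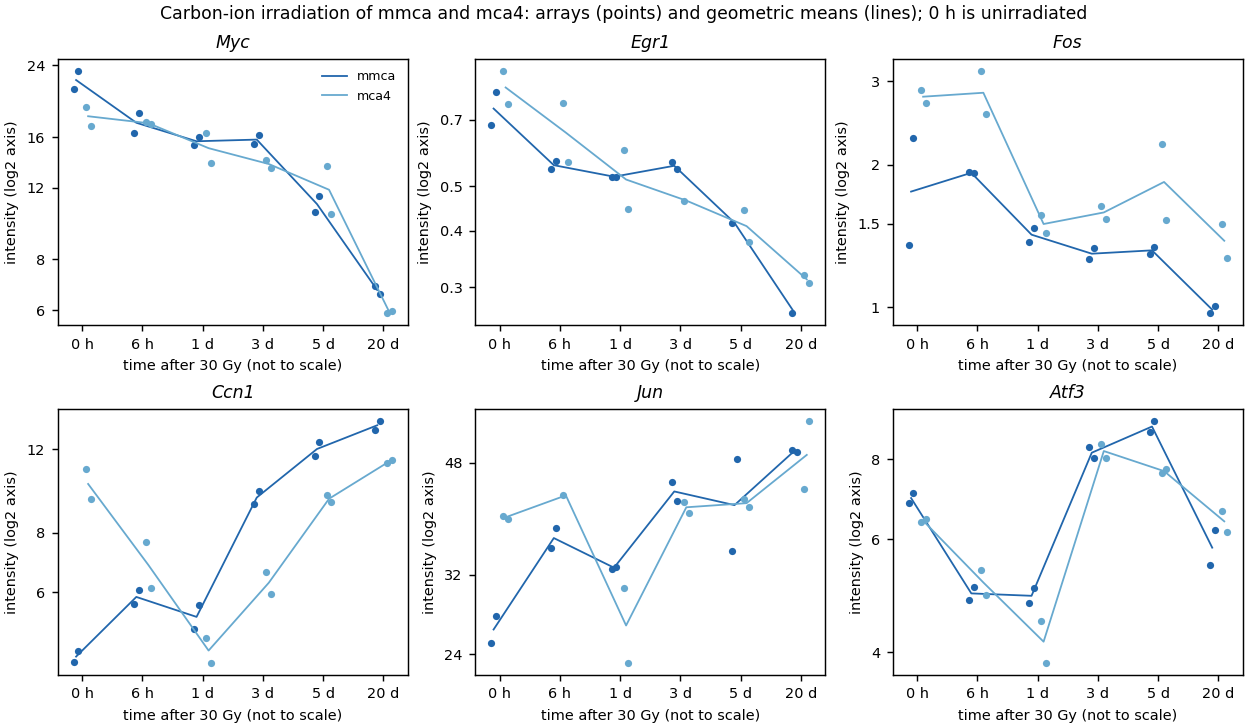
Deposited intensity on a log2 axis of Myc, Egr1, Fos, Ccn1, Jun and Atf3 in mmca and mca4 unirradiated (0 h) and at 6 h and 1, 3, 5 and 20 days after 30 Gy of carbon ions; points are arrays and lines join geometric means. Myc ends at 6.87 and 6.58 in mmca and 5.91 and 5.98 in mca4, below every earlier array. Atf3 lies below its unirradiated arrays at 6 h and 1 day and above them at 3 days.

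The 2 carcinomas went separate ways in Ccn1. In mmca it measured 11.6 and 12.4 at day 5 and 13.2 and 13.8 at day 20, against 4.27 and 4.51 unirradiated. In mca4 it measured 4.79 and 4.26 at day 1, 6.62 and 5.96 at day 3, 9.6 and 9.27 at day 5 and 11.2 and 11.4 at day 20, against 10.9 and 9.42 unirradiated. So Ccn1 in mca4 was lower at day 1 (-1.16 ± 0.19, with 1.71% of genes called) and near its unirradiated level by day 20 (0.16 ± 0.19), while in mmca it was higher at day 5 (1.45 ± 0.19, with 50.4% of genes called) and day 20 (1.62 ± 0.19, with 59.4% called). The response of mmca minus that of mca4 over days 1 to 5 was 1.60 ± 0.22 for Ccn1 (adjusted p = 1.41e-06), in a comparison that called 0.572% of genes. Jun was called there as well (0.71), but was at 0.64 (adjusted p = 0.164) without mmca hour 0 replicate 1. The limma model of the carbon arrays alone called 1716 of 12939 genes in the comparison over days 1 to 5, with 4 members higher. In mca4 at day 1 that model called 1970 of 12958 genes, with 6 members lower. At hour 6 the responses of the 2 tumours were not called different for any gene (0% of genes, with 685 genes at an unadjusted limma p under 0.05). The model of the carbon arrays alone called 568 genes there, Ccn1 among them (0.98, adjusted p = 8.24e-06).

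By day 20 the 2 carcinomas showed like values for Myc, at -1.72 ± 0.22 in mmca and -1.60 ± 0.22 in mca4, where 60% of genes were called in mca4, and for Egr1, at -1.49 ± 0.27 and -1.40 ± 0.22. Their difference was not tested. Jun in mmca measured 50.3 and 50 at day 20, against 25 and 27.6 unirradiated, a change of 0.93 ± 0.15. Fos in mca4 measured 1.5 and 1.27 at day 20, against 2.87 and 2.7 unirradiated, a change of -1.01 ± 0.30. Atf3 followed another course, with 4.48 and 3.85 in mca4 at day 1 and 8.46 and 8.03 at day 3, against 6.38 and 6.45 unirradiated. In mmca it measured 4.77 and 5.03 at day 1 and 8.82 and 9.19 at day 5, against 6.83 and 7.1 unirradiated.

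In the 4 tumours without unirradiated carbon arrays, day 20 (day 42 in scc7) was set against day 5. In nfsa, with 19.9% of genes called, Atf3 measured 6.94 and 6.56 at day 20, against 2.01 and 2.35 at day 5, a change of 1.63 ± 0.23, and Ccn1 (1.29 ± 0.19) and Egr1 (0.90 ± 0.22) were higher too. In the induced fibrosarcoma, with 44.9% of genes called, Myc (1.12 ± 0.22) and Ccn1 (0.70 ± 0.19) were higher and Fos was lower (-1.31 ± 0.30). Fos measured 0.835 and 0.741 at day 20, against 2.16 and 1.77 at day 5. In nrs1, with 35.7% of genes called, Pim1 was lower (-1.15 ± 0.22), at 0.471 and 0.548 on day 20 against 1.09 and 1.16 on day 5. In scc7, with 32.5% of genes called, Atf3 was lower (-0.80 ± 0.23), at 1.89 and 1.79 on day 42 against 3.18 and 3.22 on day 5. Myc was also called higher at the later time in nfsa (0.87 ± 0.22), at 8.82 and 9.01 against 4.39 and 5.43 at day 5, and in scc7 (0.57 ± 0.22), and was not called in nrs1 (-0.34 ± 0.22). The nfsa call was lost without day 5 replicate 1 (0.71, adjusted p = 0.0779). The scc7 call was lost without any 1 of its 4 arrays, for example day 42 replicate 2 (0.50). The fits behind both losses also left out 1 array of each other set without unirradiated arrays. In the limma model of the carbon arrays alone, Myc was called higher in nfsa (adjusted p = 9.19e-08) and scc7 (adjusted p = 7.04e-05). In nrs1 that model called Myc lower (adjusted p = 0.0119). These changes are against day 5, and those of mmca and mca4 are against unirradiated arrays, so the values are given side by side only.

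Of 39 other immediate early genes measured, 7 were higher and 19 lower at day 1 after gamma rays, where 59.5% of all genes were called, with a median log2 change of -0.17 against -0.04 over all genes tested. Nr4a2 (-1.24) and Nr4a1 (-0.83), orphan nuclear receptors, and Ccn2 (-0.76), the closest relative of Ccn1, were the 3 with the largest changes. At days 8 to 25, 22 of 39 were higher and 9 lower in the induced fibrosarcoma (67.6% of all genes called), and 7 were higher and 18 lower in nfsa (57.5% called). At hour 6 after carbon ions 7 of 39 were higher and none lower, where 9.54% of all genes were called, led by the chemokine Cxcl2 (2.12), the antiproliferative p53 target Btg2 (1.00) and the stress gene Gadd45b (0.71). By day 20, 16 were higher and 15 lower, where 71% of all genes were called, with Nr4a1 at -2.01 and Gadd45b at 1.98.

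The pathways around the members gave the following counts, to be read against the shares of all genes called in the same comparisons: 67.6% in the late induced fibrosarcoma, 63.7% in late mca4, 42.4% in late mmca, 57.5% in late nfsa and 71% at day 20 after carbon ions. Of 17 genes of the MAP kinase and serum response factor pathway, the late induced fibrosarcoma had 12 higher and 1 lower, late mca4 8 and 1, and late nfsa 3 and 4. Of 14 integrated stress response genes, which include targets induced together with Atf3, the late induced fibrosarcoma had 8 higher and none lower, late mca4 8 and 2, late mmca 2 and 4, and late nfsa 3 and 9. Of the 23 genes of the MYC network and MYC targets, 19 were lower and 2 higher at day 20 after carbon ions, with a median of -1.01 against -0.14 over all genes. Srm (-1.87), which makes spermidine, and the ribosome assembly genes Pa2g4 (-1.74) and Nop58 (-1.65) led them. The list did not follow Myc in every tumour. At the later carbon time against day 5 it had 13 genes higher and 4 lower in the induced fibrosarcoma, 7 and 1 in nfsa, 7 and 4 in scc7, and 11 and 2 in nrs1, where Myc was not called (-0.34). The limma model of the carbon arrays alone called Myc lower in nrs1 (adjusted p = 0.0119). Late gamma nfsa had 2 higher and 14 lower, with Myc at 0.38 and not called. The other 4 CCN genes measured were all higher at day 20 after carbon ions, with Ccn5 at 3.53, Ccn3 at 1.97 and Ccn4 at 1.42. Pim3, the relative of Pim1, was lower at day 1 (-0.74) and at days 8 to 25 (-0.81) after gamma rays, where Pim1 was higher. Hypoxia genes after gamma rays were higher in 10 of 11 in the late induced fibrosarcoma and lower in 10 of 11 in late mmca. At day 20 after carbon ions they were lower in 11 of 11 in mmca and in mca4 against unirradiated arrays, and higher in 11 of 11 in the induced fibrosarcoma and in nfsa against day 5. How these lists bear on the members was not tested.

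The members were also compared with each other over group means, with each tumour's own mean removed. The means share arrays, tumours and processing, so these correlations are descriptions. Over the gamma groups the highest values among members were 0.812 for Dusp1 with Ccn1 and 0.801 for Fos with Atf3 (34 and 33 group means). Atf3 with Dusp1 had 0.739, Egr1 with Dusp1 0.733 and Junb with Pim1 0.723. Over the 20 carbon groups Egr1 with Myc had 0.897, Junb with Atf3 0.809 and Jun with Ccn1 0.794. Each of these pairs was lower in the other experiment. Over carbon groups Dusp1 with Ccn1 had 0.464, Junb with Pim1 0.407, Fos with Atf3 0.194, Egr1 with Dusp1 0.101 and Atf3 with Dusp1 0.0842. Over gamma groups Junb with Atf3 had 0.567, Egr1 with Myc 0.549 and Jun with Ccn1 0.0918. Among non-member genes, chosen by the highest correlation over gamma groups, Ccn1 was closest to Ccn2 (0.883, and 0.595 over carbon groups). Atf3 was closest to Nampt (0.915 and 0.645), Dusp1 to Bhlhe40 (0.856 and 0.377), Pim1 to Pdpk1 (0.916 and 0.356), Egr1 to Srrm1 (0.813 and 0.843) and Myc to Tmpo (0.809 and 0.826).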

How the data were processed

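The deposited table holds 1 intensity per probe and array on CodeLink 1-colour arrays, as the authors deposited it. Per the labels, ISOGEN and RNeasy kits gave the RNA, and the label was Cy5. How the authors corrected background and scaled the arrays is not given in the sources used here. Probes were named through the platform annotation: 21615 probes had 1 gene symbol, 681 several and 13931 none, and a gene was taken from its brightest single-symbol probe with values on at least 90% of arrays. Missing values made up 9.99% to 18.6% of a gamma array and 0.541% to 4.92% of a carbon array, and were left missing. A floor at the 5th percentile of positive values (0.1269) replaced the 1831 values at or below 0 and others under it before log2. No value of a member lay at the floor, and the lowest was 0.165, for Fos. Probes whose mean log2 intensity was below the 20th percentile (-1.076) were dropped, except Egr1. The number of arrays, and not a read depth, limits the precision.

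One limma model (limma 3.58.1, R 4.3.3) of the 54 group means was fitted to 12963 genes with 67 residual degrees of freedom, trend-moderated, with Benjamini-Hochberg adjustment over all genes of a comparison. It was tested on simulated data. No 2 arrays held identical values. All 10 members are described. From each related list at most the 3 called genes with the largest change per comparison are named, and neighbours are the genes with the highest Pearson correlation over gamma group means. The members and lists were chosen with earlier results of these data known. The late comparisons within each tumour, the 30 Gy comparisons over time and the F tests across tumours were added after seeing the data.

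Groups share replicate numbers in the labels. Same-numbered arrays deviated together in all 15 pairs of carbon mca4 groups (correlation of deviations 0.14 to 0.376) and in 80% of pairs of carbon mmca groups (median 0.288). They also did in 66.7% of pairs of gamma scc7 groups and in the only pair of carbon induced fibrosarcoma groups (0.113). Elsewhere it was at most 33.3% of pairs. The labels do not say that a shared number pairs arrays, so the replicate block was an alternative and not part of the main fit. Figures were drawn with Python 3.11.15, pandas 2.3.3 and matplotlib 3.10.9. Promoter sequences came from RefSeq entries on GRCm38.p6.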

Additional observations from a re-analysis of the deposited data

Results flagged for a closer look

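These results were picked out because the change after irradiation differed between tumours by a limma test of the difference itself. Groups held 2 or 3 arrays, too few for a test of single outlying arrays. At day 1 after gamma rays, fibrosarcomas minus mammary carcinomas differed by 0.64 in log2 for Pim1 and by -0.47 for Ccn1. Over days 1 to 5 after carbon ions, mmca minus mca4 differed by 1.60 for Ccn1 and 0.71 for Jun.

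The F tests across the induced fibrosarcoma, mmca, nfsa and mca4 gave a range, highest minus lowest of the 4 log2 changes. At day 1 it was 1.93 for Pim1, 1.72 for Fos, 1.43 for Atf3, 1.30 for Ccn1, 0.86 for Egr1, 0.79 for Dusp1, 0.74 for Junb and 0.71 for Jun. At days 8 to 25 it was 3.06 for Fos, 2.89 for Pim1, 2.44 for Atf3, 2.44 for Ccn1, 2.36 for Junb, 1.67 for Dusp1, 0.91 for Jun, 0.79 for Egr1, 0.69 for Myc and 0.43 for Fosb. The wide late ranges came from the induced fibrosarcoma and mca4 on the high side and nfsa or mmca on the low side. Time and irradiation cannot be told apart in 3 of the 4 tumours, nor at day 19 in mmca, where the control was of day 9.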

How the results depend on the processing

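Over the alternatives other than leaving out single arrays, 2 of which drop an experiment or a group, 4205 single changes of members kept their direction and their side of the threshold, 99 became called, 184 lost a call and 8 turned round. Leaving out each array in turn turned none round. For the sets without unirradiated arrays, 1 array of several such sets was left out in the same fit. All members had 1 usable probe, so the other-probe alternative gave no value. The fit of 1 value per group was not run for unirradiated mmca over time, for the comparisons of mmca with mca4 or for single groups. The number of arrays, 2 or 3 a group, and missing Fos, Jun and Egr1 values limit the late and carbon comparisons.

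All 8 turned values were for Jun. Quantile normalisation, which moved the median of all genes to 0.168 against -0.00977 for 70 minus 30 Gy, and to 0.152 against -0.0621 for unirradiated mmca, gave Jun 0.07048 for 70 minus 30 Gy in the mean, 0.05607 in the induced fibrosarcoma, 0.2301 in nfsa and 0.01702 at 70 Gy against 0 Gy. With missing values at the floor as well, Jun was at 0.002259 for 70 minus 30 Gy in the mean, 0.1686 in nfsa, -1.741 at carbon hour 6 and -4.033 in mca4 at hour 6. The last 2 follow from a missing mca4 array set to the floor. The cause of the others was not tested.

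Quantile normalisation gave 2 members higher at day 1, 5 higher and 2 lower for 70 minus 30 Gy, 0 lower in the fibrosarcoma comparison, 2 lower at days 8 to 25 and 1 lower in unirradiated mmca, with 3 genes called in the hour 6 comparison of mmca with mca4. Without the filter on dim probes that comparison called 2 genes. Fitted with arrays of the same experiment alone, the fibrosarcoma comparison had 0 members lower, carbon hour 6 had 2 higher and 2 lower with 3567 genes, days 1 to 5 had 2 higher, the hour 6 comparison of mmca with mca4 had 1 higher with 568 genes, and that of days 1 to 5 had 4 higher with 1716 genes. With missing values at the floor and quantile normalisation, the fibrosarcoma comparison had 0 lower with 1590 genes, unirradiated mmca 1 lower with 1790 genes, carbon hour 6 had 1 lower, days 1 to 5 had 0 higher, day 20 had 1 higher, mmca against mca4 had 2 higher with 136 genes at hour 6 and 1 higher with 184 genes at days 1 to 5, and the unirradiated fibrosarcomas had 2 higher. Without the 50 Gy day 1 group of the induced fibrosarcoma 2 members were higher at day 1.

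With 1 value per group, which leaves few values, day 1 had 0 higher and 3 lower with 2076 genes, 70 minus 30 Gy had 0 higher and 0 lower with 434 genes, and the fibrosarcoma comparison had 0 higher and 0 lower with 0 genes. Days 8 to 25 had 1 higher and 0 lower with 3528 genes, carbon hour 6 had 315 genes, days 1 to 5 had 0 higher, and the unirradiated fibrosarcomas had 0 higher and 0 lower with 817 genes.

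The replicate block gave 2 members higher at day 1 and 3 higher in the unirradiated fibrosarcomas. In carbon mca4, where same-numbered arrays deviated together, the block ended the calls of Fos at day 3 (-0.81, adjusted p = 0.0518), Egr1 at day 3 (-0.69, adjusted p = 0.0646) and Jun at day 20 (0.33, adjusted p = 0.0617).

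Leaving out 1 array gave 1 to 2 members higher at day 1, 0 to 1 lower in the fibrosarcoma comparison, 1 to 3 lower with 1282 to 2370 genes in unirradiated mmca, and 3 to 5 higher in the unirradiated fibrosarcomas. Carbon hour 6 had 721 to 910 genes, days 1 to 5 had 0 to 1 higher, and mmca against mca4 had 0 to 6 genes at hour 6 and 1 to 2 higher with 12 to 64 genes at days 1 to 5.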

Other observations

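The unirradiated mca4 arrays of the carbon and gamma experiments differed widely in Fos. Fos measured 2.87 and 2.7 at hour 0 of the carbon experiment, against 0.167 and 0.192 at day 1 of the gamma experiment. Atf3 also differed in mca4, at 6.38 and 6.45 against 1.31 and 1.6. In unirradiated mmca the same genes lay closer, with 1.35 and 2.28 against 1.17 and 1.18 for Fos and 6.83 and 7.1 against 5.9 and 6.6 for Atf3. The experiments differ in time and in array processing, which cannot be told apart, so no test was made.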
